A study of Danio rerio with 36 samples.

Results

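A pair of fish gene families is described here across zebrafish development and in kctd15 mutants, the bloodthirsty-related genes (btr) and the fish-specific finTRIM genes (ftr). Members were taken by symbol, as every gene of the deposited count table whose name begins with btr or ftr followed by a digit. This gave 78 members (20 btr and 58 ftr) of 30490 genes. The libraries came from RNA of whole embryos at 1 somite, 25 hpf and 2 day and of whole larvae at 5 day, 9 day and 14 day. Each stage had 3 kctd15 mutant and 3 wild-type libraries, 36 in all. The labels give no allele, no choice between kctd15a and kctd15b as the mutated paralog, and no number of animals per library. The labels name no other agent or allele, and larvae of both genotypes were fed. Kctd15 is a BTB-domain protein known in zebrafish to limit neural crest formation.

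TRIM proteins carry a RING domain, a B-box and a coiled coil, and many act as ubiquitin ligases. The btr and ftr genes form large fish-specific branches of that superfamily, and many of their proteins end in a B30.2 (PRYSPRY) domain, a module that binds other proteins. The finTRIM genes were first found as virus-induced transcripts of trout leukocytes, and ftr83 of zebrafish is known to raise type I interferon and antiviral defence. The bloodthirsty branch is named after a zebrafish gene needed for red blood cell formation. For most single members no role is known.

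Estimated counts per library summed to between 5.51 M and 12.52 M. The members together held 189 to 709.7 CPM per library (read counts scaled by library total and TMM factor), so most are low genes. Of the 78 members, 11 stayed under 1 CPM in every group mean, 9 reached 20 CPM in a group, and 39 had a count in all 36 libraries. Between 32 and 62 members passed the filter on low counts at a stage, 28 passed at all 6 stages and 15 at none. The stage labels went with the stage markers. A list of 1 somite mesoderm genes summed to at least 548.7 CPM at 1 somite and at most 36.5 CPM at any later stage. A list of pancreas enzyme, gut and eye genes summed to at least 5464 CPM from 5 day on and at most 759.9 CPM before. The RNA of kctd15a was higher in mutants at all 6 stages, and that of kctd15b at every stage from 25 hpf on. This checks neither the lesion nor the labels, since a mutant allele can still be transcribed. Counts cannot tell fewer cells of a type from less RNA per cell, because each library is a whole animal or a pool of them.

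Many members have close neighbours of the same family, so their reads may be shared. Of the 78 symbols, 73 were found in a RefSeq gene table of a later assembly (GRCz12tu). They sit on 14 chromosomes, 28 of them on one chromosome, and 38 lie directly next to another member. None lies on a chromosome with kctd15a or kctd15b. Near-identical neighbours can split reads in a transcript-level quantification. Of 28 members whose gene total equals that of a single matched transcript within 1%, only 7 had whole-number estimates (to within 1e-06) in all 36 libraries and 5 had them in none. For btr02 and ftr82 the matched transcript was whole in all 36 libraries and for btr30 in 1. The members btr20, btr21, btr32, ftr49 and ftr97 could not be placed in that annotation and were not checked for neighbours.

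In wild type the families had a high early phase, a low point at 2 day and a second rise in larvae. The adjacent pair ftr82 and ftr83, which are among the finTRIMs best conserved across fish, led at 1 somite together with ftr86. Wild-type ftr83 measured 174, 144 and 192 CPM at 1 somite, and 16.1, 19 and 16 CPM at 2 day. Wild-type ftr82 measured 74.9, 83.3 and 97.7 CPM at 1 somite and 31.4, 33.4 and 33.9 CPM at 2 day. The level of ftr83 was thus far lower at 2 day and that of ftr82 less so. From 25 hpf on ftr82 was the highest member in wild type at each of the remaining stages, with 47.5 ± 6.77 CPM at 25 hpf, 35.8 ± 1.85 CPM at 5 day and 47 ± 2.47 CPM at 14 day (mean ± SD, n = 3 each). Values after ± are standard deviations for CPM and standard errors for log2 fold changes throughout.

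Between 25 hpf and 1 somite, 3 of 33 members tested were higher at 25 hpf and 19 were lower, where 76.9% of all genes passed the test, 41.7% higher and 35.2% lower (edgeR quasi-likelihood, adjusted p below 0.05, which is what "called" means below). The largest falls among members of at least 5 CPM were those of ftr86 (log2 fold change -3.57 ± 0.12), ftr14l (-2.85 ± 0.15) and btr30 (-2.27 ± 0.19), and the largest rise was that of btr07 (1.84 ± 0.25), followed by ftr30 (0.86 ± 0.20) and btr06 (0.61 ± 0.21). At 2 day against 25 hpf, 3 of 37 were higher and 11 lower (background 59.7%, 30.6% higher and 29.1% lower), with ftr51 (0.57 ± 0.21) higher and btr12 (-1.63 ± 0.24), ftr83 (-1.26 ± 0.11) and ftr24 (-1.03 ± 0.18) lower. Most members called at either step were thus lower, in both families. At the step to 2 day the share lower was near the 29.1% of all genes, while the share higher was well under 30.6%.

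The direction turned at 5 day. Against 2 day, 26 of 44 members were higher and only btr07 was lower in wild type, where 61% of all genes were called, 30.8% higher and 30.2% lower. Among them btr02 (1.85 ± 0.20), ftr97 (1.84 ± 0.33) and btr12 (1.70 ± 0.30) had the largest rises of members of at least 5 CPM. At 9 day against 5 day, 19 of 60 were higher and 2 lower (background 49.3%, 25.4% higher and 23.9% lower), with the largest rises among members of at least 5 CPM in btr21 (2.23 ± 0.55), btr31 (1.54 ± 0.27) and ftr43 (1.37 ± 0.30), and with ftr67 lower (-0.76 ± 0.17). At 14 day against 9 day, 2 of 64 were higher and 9 lower (background 16.8%, 9.32% higher and 7.46% lower), with ftr86 (-1.94 ± 0.23), btr30 (-1.26 ± 0.32) and btr01 (1.99-fold) lower. Levels at neighbouring stages share the libraries of the stage between them.

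**Figure D1:**
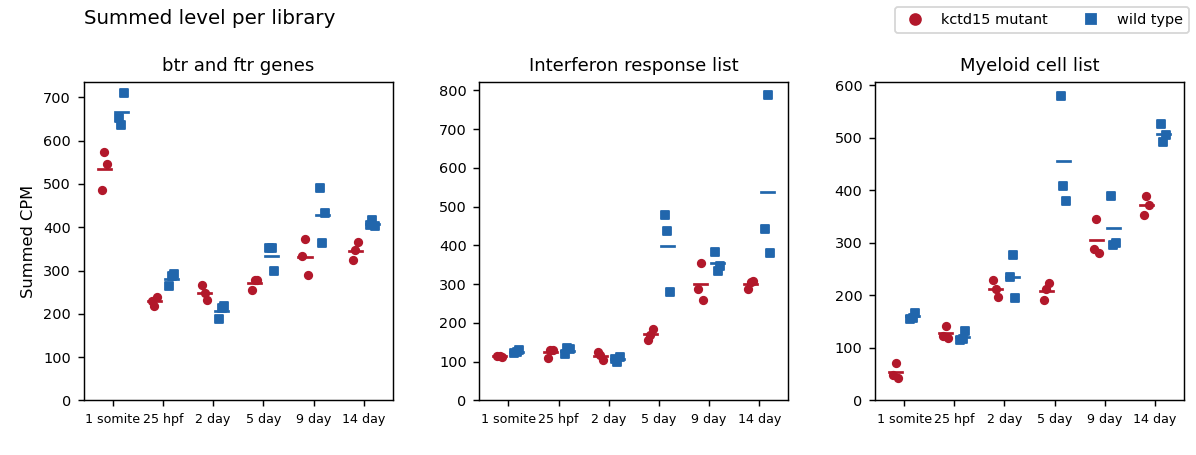
Summed level (CPM, linear axis) of the 78 btr and ftr genes, of an interferon response list and of a myeloid cell list in each library at 6 stages, with mutants as circles left of wild type as squares and bars at group means of 3 libraries. The btr and ftr sum runs from 486.1 to 574.5 CPM in mutants against 635.5 to 709.7 CPM in wild type at 1 somite, and at 5 day the interferon list runs from 156.1 to 184.4 CPM in mutants against 280 to 478 CPM in wild type.

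The mutants were then compared with wild type at each stage. Of the 63 members tested at 1 stage or more, 25 were called at 1 or more, where 32.7% of all genes tested were, and 10 at 2 or more (background 8.84%). Of their 37 calls 35 were lower in mutants, where 49.8% of the calls of all genes were lower. Early calls (btr07, btr30, ftr83, ftr86) and late calls (btr20, btr21, btr22, ftr43, ftr49) mostly named different members, and 5 day brought in others. The filter fixed part of this split. It left btr20, btr22 and ftr49 to be tested only at 9 and 14 day, btr21 at 3 stages and ftr43 at 4. In the fit of all 36 libraries btr22 was also lower at 25 hpf (-6.03 ± 1.7, edgeR adjusted p = 0.027), with 0 counts in mutants. The same fit had it lower at 2 day (-3.46 ± 1.06, edgeR adjusted p = 0.0302). The median log2 fold change of the members tested was -0.04 at 1 somite, -0.22 at 25 hpf, 0.37 at 2 day, -0.37 at 5 day, -0.35 at 9 day and -0.22 at 14 day, against medians of all genes between -0.01 and 0.02. At 2 day the members lay the other way: 31 of 36 had a positive fold change (50.2% of all genes), though the stage fit called only 1 rise. The fit of all 36 libraries called btr04, ftr34, ftr76 and ftr79 higher at 2 day, and btr07, btr22 and ftr88 lower. That of ftr34 (5.36 ± 1.58, edgeR adjusted p = 0.0248) stood against 0 counts in wild type. The same fit called ftr87 higher at 1 somite (3.56 ± 1.04, edgeR adjusted p = 0.0211), on few counts.

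**Figure D2:**
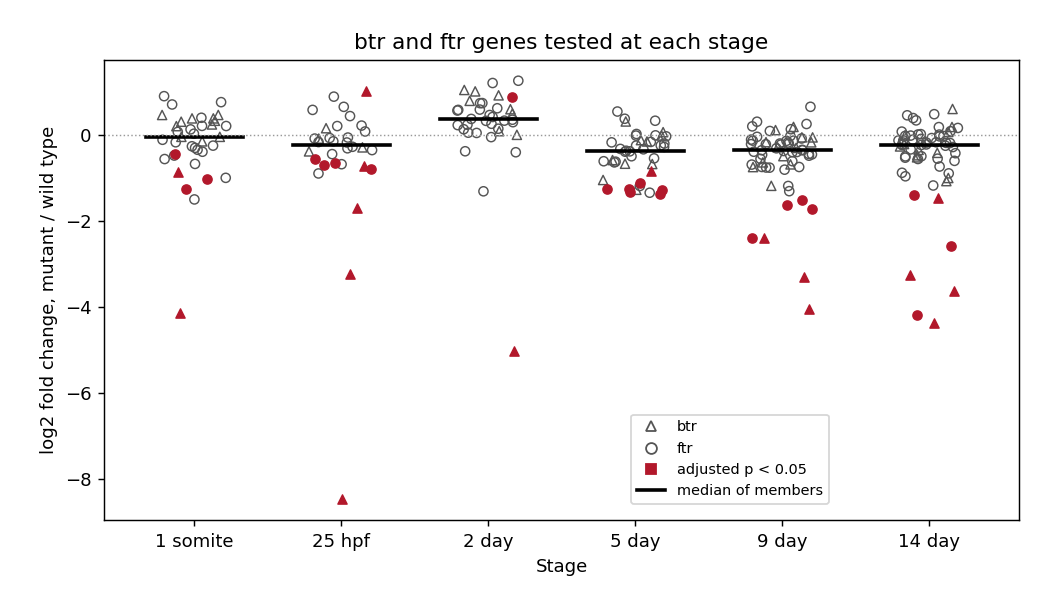
Log2 fold change of mutant over wild type for each member tested at a stage (triangles btr, circles ftr, filled where the edgeR adjusted p is below 0.05), with black bars at the median of the members. Filled points lie below 0 except btr04 at 25 hpf and ftr79 at 2 day, and the medians are -0.37 at 5 day and 0.37 at 2 day.

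At 1 somite 5 of 37 members were called, all lower in mutants, where 13.6% of all genes were called, 6.77% higher and 6.79% lower. The finTRIM ftr86 carried the largest absolute loss. It measured 32.3, 32 and 38.3 CPM in mutants, against 83, 75.3 and 88.5 CPM in wild type (log2 fold change -1.26 ± 0.11, edgeR adjusted p = 4.10e-05). All mutant libraries lay below all wild-type libraries, by more than the spread of either group. The bloodthirsty relative btr30 measured 10.7, 13.8 and 9.98 CPM in mutants, against 21.7, 17.1 and 23.6 CPM in wild type (-0.85 ± 0.17, edgeR adjusted p = 0.00648). The antiviral ftr83 was the highest member of all and measured 117, 137 and 119 CPM in mutants, against 174, 144 and 192 CPM in wild type (-0.45 ± 0.12, edgeR adjusted p = 0.0258). Its groups did not overlap, but the highest mutant and the lowest wild-type library lay close, and the call was lost in 4 of 6 fits that left out 1 library (highest adjusted p = 0.104). The pseudogene ftr52p was also called (-1.02 ± 0.29, adjusted p = 0.0367) and was lost in 4 of those 6 fits (highest adjusted p = 0.129). The neighbour of ftr83, ftr82, measured 79 ± 7.73 CPM in mutants and 85.3 ± 11.5 CPM in wild type and was not called (-0.11 ± 0.11, adjusted p = 0.596). The myeloid list summed to 43.1 to 70.4 CPM in mutants against 155.2 to 167.1 CPM in wild type at this stage. The lower sum was not shared by most of the list's tested genes. Of 4 tested, 3 had a positive and 1 a negative fold change (median 0.08), and 1 was called in each direction. The part of this list in these calls was not tested.

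At 25 hpf 9 of 32 members were called, 1 higher and 8 lower in mutants (background 13.6%, 6.82% higher and 6.75% lower). Depth went with genotype at this stage, at 5.51 to 6.67 M counts in mutants against 7.93 to 10.77 M in wild type. Members with a count numbered 55 to 57 in mutant libraries and 61 to 66 in wild type. The part of depth in members with few counts was not tested. The calls of ftr83, ftr86 and btr30 at 1 somite were met again. The level of ftr83 was 32.2, 26.4 and 28.3 CPM in mutants, against 43.2, 43 and 43.5 CPM in wild type (-0.56 ± 0.10, edgeR adjusted p = 0.000671). That of btr30 was 1.45, 1.07 and 1.28 CPM in mutants, against 3.75, 5.14 and 3.55 CPM in wild type (-1.70 ± 0.32, edgeR adjusted p = 0.00152). Neither gene overlapped between the groups, and wild-type ftr83 was almost the same in its 3 libraries. The fall of ftr86 was smaller than at 1 somite (-0.79 ± 0.21, adjusted p = 0.0156) and was lost in 2 of 6 fits without 1 library (highest adjusted p = 0.0625). The other called falls were ftr76 (-0.65 ± 0.16), btr12 (-0.72 ± 0.20) and ftr30 (-0.70 ± 0.22), each lost in 1 to 4 of 6 such fits (highest adjusted p = 0.0512, 0.12 and 0.165). The bloodthirsty relative btr18 had 3 counts over the mutant group against 51 in wild type, a ratio 10.4-fold lower with a counting interval of 3.35 to 52 (95%, counting error only). It is among the few members seen mostly at 1 somite, where mutants had 8.71, 12.9 and 9.78 CPM and wild type 8.78, 5.57 and 8.45 CPM.

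The sharpest early difference was that of btr07. Mutants had 0, 0 and 0.198 CPM at 1 somite, against 1.58, 1.34 and 1.81 CPM in wild type. At 25 hpf all mutant libraries were at 0, against 4.84, 6.11 and 5.46 CPM in wild type, and at 2 day mutants had 0, 0.301 and 0.15 CPM, against 2.34, 8.44 and 7.25 CPM in wild type. At these early stages mutants held almost no reads of btr07 and wild type held some in every library. From 5 day on the difference was not seen. Mutants measured 3.42, 2.2 and 3.31 CPM at 5 day, against 2.77, 2.24 and 2.14 CPM in wild type, and the groups overlapped there. They also overlapped later, at 5.51 ± 1.13 CPM in mutants and 5.66 ± 0.69 CPM in wild type at 9 day and at 6.09 ± 0.60 CPM in mutants and 6.98 ± 0.72 CPM in wild type at 14 day (SD, n = 3 each). The fold was 20.7 lower at 1 somite (2 counts against 38, counting interval 5.36 to 177) and at least 33.8 lower at 25 hpf, where the bound takes 3 counts over the mutant group. At 2 day the fitted log2 fold change was -5.03 ± 0.71 (edgeR adjusted p = 0.00212), with 4 counts in mutants against 145 in wild type.

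The gene btr04 moved the other way from btr07. Both lie in 1 run of bloodthirsty-related genes that holds btr04, btr05 and btr06, then a locus without a name of the family, and then btr07. At 25 hpf btr04 measured 6.88, 6.6 and 9.6 CPM in mutants, against 4.48, 3.19 and 4.02 CPM in wild type (log2 fold change 1.02 ± 0.22, edgeR adjusted p = 0.00463). In the stage fits this was 1 of 2 called rises among the members. At 2 day btr04 measured 9.63, 10.8 and 5.25 CPM in mutants, against 7.4, 2.89 and 3.31 CPM in wild type, and the wild-type library with the most btr04 had the least btr07. The stage fit did not call btr04 there. The fit of all 36 libraries did (0.945 ± 0.273, edgeR adjusted p = 0.0217), so that call depends on the fit. When the counts of both genes were added before the fit, an alternative added after these values had been seen, mutants held 6.88, 6.6 and 9.6 CPM at 25 hpf, against 9.32, 9.3 and 9.49 CPM in wild type (-0.26 ± 0.18, edgeR adjusted p = 0.391). The summed fold change was 0.03 ± 0.19 at 1 somite (adjusted p = 0.938) and -0.17 ± 0.23 at 2 day (adjusted p = 0.693). The sum was not called at any stage, its means lying between 7.69 and 17.6 CPM in mutants and between 9.37 and 21.4 CPM in wild type. A change in the total of the 2 genes was thus not shown. At 1 somite wild-type btr07 (1.58, 1.34 and 1.81 CPM) was a small part of a mean sum of 10.9 CPM. The sum could hardly show a loss of btr07 there, and it left out btr06 of the same run. It therefore does not decide whether the early calls of btr04 and btr07 are changes of RNA. Whether reads were assigned between the genes of this run differently in the 2 genotypes was not tested.

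**Figure D3:**
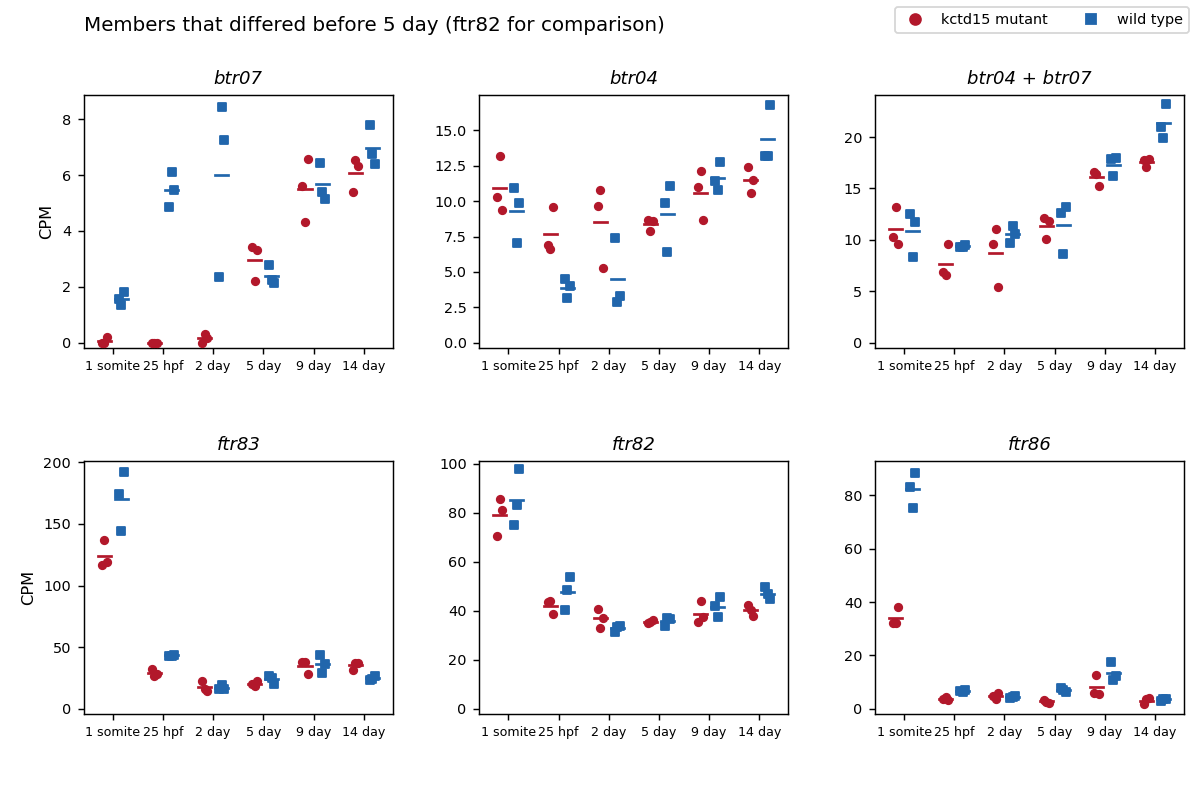
CPM per library (linear axes) of btr07, btr04, their sum, ftr83, ftr82 and ftr86 at 6 stages, with mutants as circles left of wild type as squares and bars at group means of 3 libraries. Mutant btr07 lies at or below 0.301 CPM up to 2 day and meets wild type from 5 day on, the sum of btr04 and btr07 does not separate the groups at 1 somite, and ftr86 separates widely at 1 somite (32 to 38.3 CPM against 75.3 to 88.5 CPM).

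At 2 day 2 of 36 members were called (background 6.86%, 4.7% higher and 2.17% lower): btr07 lower, as above, and ftr79 higher. The level of ftr79 was 10, 8.44 and 9.15 CPM in mutants, against 4.54, 5.91 and 5.09 CPM in wild type (0.89 ± 0.19, edgeR adjusted p = 0.0191). The groups did not overlap, and the call was lost in 3 of 6 fits without 1 library (highest adjusted p = 0.0815). At an unadjusted p below 0.05, 12 of the 36 members were higher in mutants and 2 lower, where 14.5% of all genes were higher and 10.7% lower at that threshold. Erythroid genes stood high in mutants at this stage and at 25 hpf: 13 of 17 tested were called higher at 2 day and 1 lower, and 16 higher and 1 lower at 25 hpf, with summed levels of 2810 to 3567 CPM in mutants against 487.9 to 2019 CPM in wild type at 2 day, and of 2780 to 3609 CPM against 887.1 to 1192 CPM at 25 hpf. Their part in the result was not tested.

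At 5 day 7 of 42 members were called, all lower in mutants, where 14% of all genes were called, 6.17% higher and 7.84% lower. Of these ftr86 and btr02 were the steadiest. The level of ftr86 was 3.28, 2.58 and 2.34 CPM in mutants, against 7.62, 6.93 and 6.41 CPM in wild type (-1.38 ± 0.22, edgeR adjusted p = 0.00238). That of btr02 was 5.56, 6.72 and 6.53 CPM in mutants, against 11, 11.7 and 10.7 CPM in wild type (-0.83 ± 0.16, edgeR adjusted p = 0.00623). Both separated the groups cleanly and were kept in all 6 fits that left out 1 library. The level of ftr97 was 3.14, 4.26 and 4.97 CPM in mutants, against 11.6, 11.4 and 6.41 CPM in wild type (-1.24 ± 0.26, edgeR adjusted p = 0.0106). Wild-type replicate 3 lay nearer to the mutants than the other wild-type libraries, and the call was lost in 1 of 6 fits without 1 library (highest adjusted p = 0.0502). The remaining calls were ftr37 (-1.31 ± 0.40, adjusted p = 0.049), ftr01 (-1.12 ± 0.33, 0.0432), ftr93 (-1.27 ± 0.36, 0.0403) and ftr88 (-1.25 ± 0.32, 0.025), and each was lost in 4 or 5 of 6 fits without 1 library (highest adjusted p = 0.218, 0.21, 0.177 and 0.108).

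The count at 5 day rests on single libraries: it was 15 without wild-type replicate 3, and between 2 and 4 without any 1 of the other 5. That replicate also had the lowest member sum of its group, at 299.3 CPM against 352.3 and 351.4 CPM in the other wild-type libraries, while mutants had 254.3, 277.2 and 279 CPM. It was likewise lowest for the interferon list, at 280 CPM against 478 and 435.9 CPM, with mutants at 156.1, 170 and 184.4 CPM. Of the 44 interferon genes in the table, 1 had no count in the mutants at 5 day and 0 had none in wild type. With library sizes alone in place of TMM, the median of all genes at 5 day was -0.17 and 12 members were called lower.

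Other immune genes were lower in the same mutant libraries. Of 26 interferon response genes tested at 5 day, 15 were called lower and 1 higher, with a median log2 fold change of -1.19. By p-value the first were mxc (-3.09 ± 0.24), irf1b (-2.87 ± 0.25), gbp1 (-2.85 ± 0.27) and dhx58 (-2.10 ± 0.25). Of 21 myeloid markers tested, 18 were lower and none higher, with a median of -1.22. The first by p-value were the leukocyte actin bundler lcp1 (-2.18 ± 0.22), the neutrophil peroxidase mpx (-1.34 ± 0.15), and the myeloid transcription factors spi1b (-1.39 ± 0.17) and spi1a (-1.08 ± 0.15). All 21 myeloid markers of the table had counts in both genotypes at 5 day, and the list summed to 190.6 to 222.8 CPM in mutants against 379.2 to 579.9 CPM in wild type. Of 10 lymphoid markers 1 was higher (the recombinase gene rag1, 1.49 ± 0.25) and 0 lower, and of 16 erythroid genes 4 were higher, alas2 (1.21 ± 0.18) among them, and 2 lower. Against these the btr and ftr genes had 7 of 42 lower and a median of -0.37. Their part in the btr and ftr result was not tested.

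The other TRIM genes (symbols beginning with trim and a digit) gave 2 higher and 5 lower of 47 tested at 5 day. Their median was 0.07, and the share called was 14.9%, near the 14% of all genes. Among them trim25, an activator of the RNA sensor RIG-I in mammals, was lower (-0.98 ± 0.17, edgeR adjusted p = 0.00362), and so were trim35-20 (-2.80 ± 0.48), trim35-28 (-0.88 ± 0.19) and trim35-12 (-0.87 ± 0.19). At the other stages the number of other TRIM genes called ran from 0 of 49 at 9 day to 7 of 36 at 1 somite. Of all genes 1.91% were called at 9 day and 13.6% at 1 somite.

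At 9 day 7 of 61 members were called, all lower in mutants, where 1.91% of all genes were called, 0.786% higher and 1.12% lower. At 14 day again 7 of 62 were called, all lower (background 4.8%, 2.31% higher and 2.5% lower). The 5 called at both were btr20, btr21, btr22, ftr43 and ftr49. All 5 were at most 1.81 CPM in every wild-type library up to 2 day and higher in wild type at 9 day. In mutants btr20, btr22 and ftr49 stayed under 1 CPM in every library and btr21 at most 2.09 CPM, while mutant ftr43 was above its 1 somite level from 2 day on. The share of members called was above the background in both comparisons, but a member seen in 1 genotype alone can pass the filter through that genotype.

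The bloodthirsty relative btr21 had the largest gap in level. It measured 0.612, 1.61 and 0.731 CPM in mutants at 9 day, against 20.3, 8.64 and 17.7 CPM in wild type (-4.04 ± 0.42, edgeR adjusted p = 0.00161). At 14 day it measured 1.29, 0.441 and 0.715 CPM in mutants, against 5.16, 7.25 and 9.99 CPM in wild type (-3.25 ± 0.39, edgeR adjusted p = 0.00126). The lowest wild-type library was several times the highest mutant library at both stages. Before 5 day no such gap was present, with 2.09, 2.08 and 1.68 CPM at 1 somite in mutants, against 1.15, 1.22 and 1.81 CPM in wild type.

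The level of btr22 was 0.714, 0.494 and 0.0914 CPM in mutants at 9 day, against 5.7, 1.98 and 4.76 CPM in wild type (-3.29 ± 0.58, edgeR adjusted p = 0.021). At 14 day it was 0.235, 0.176 and 0.179 CPM in mutants, against 3.26, 5.07 and 4.23 CPM in wild type (-4.36 ± 0.41, edgeR adjusted p = 0.000372). Its mutant level lay under 1 CPM in every library. That of btr20 was 0.714, 0.742 and 0.457 CPM in mutants at 9 day, against 3.36, 2.07 and 4.47 CPM in wild type (-2.39 ± 0.41, edgeR adjusted p = 0.0166). At 14 day btr20 was 0.47, 0.353 and 0.0893 CPM in mutants, against 2.84, 4.47 and 3.78 CPM in wild type (-3.62 ± 0.45, edgeR adjusted p = 0.00164). Both separated the groups at both stages. In the annotation btr22 sits next to btr18, the gene that was nearly absent from mutants at 25 hpf.

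At 5 day the same 3 genes were spread widely in wild type. Wild-type replicates 1, 2 and 3 measured 7.62, 0.746 and 2.27 CPM of btr21, 2.08, 0.107 and 0.801 CPM of btr20 and 3.19, 0.32 and 1.07 CPM of btr22, while mutants had at most 1.27 CPM of btr21, 0.143 CPM of btr20 and 0.487 CPM of btr22. Replicate 1 was highest and replicate 2 lowest for all of them, and the low-count filter left all 3 out of the 5 day fit. The fit of all 36 libraries gave a 5 day log2 fold change of -2.04 ± 0.60 for btr21 (edgeR adjusted p = 0.0205), -4.14 ± 1.14 for btr20 (adjusted p = 0.0125) and -2.57 ± 0.83 for btr22 (adjusted p = 0.0349), so the 5 day call of these genes depends on the fit.

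Among the finTRIMs, ftr43 measured 2.35, 2.1 and 1.92 CPM in mutants at 9 day, against 6.73, 5.13 and 7.61 CPM in wild type (-1.63 ± 0.24, edgeR adjusted p = 0.00852), and 1.29, 1.59 and 1.79 CPM at 14 day in mutants, against 4.63, 3.26 and 4.41 CPM in wild type (-1.40 ± 0.28, adjusted p = 0.0181). Its neighbour ftr50 showed no such gap, with 5.24 CPM in mutants and 5.34 CPM in wild type as means at 9 day (-0.08 ± 0.33). The low gene ftr49 had 0.408, 0.371 and 0.457 CPM in mutants at 9 day, against 3.27, 1.44 and 1.9 CPM in wild type (-2.39 ± 0.46, adjusted p = 0.0279), and at 14 day 3 counts over the mutant group against 56 in wild type, 20.1-fold lower with a counting interval of 6.52 to 100. All of these separated the groups. The calls of btr20, btr22 and ftr49 at 9 day and of ftr43 at 14 day were lost in 3 to 5 of 6 fits without 1 library (highest adjusted p between 0.0706 and 0.103), while btr21 and ftr43 at 9 day and btr20, btr21, btr22 and ftr49 at 14 day were kept in every one.

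At 9 day but not at 14 day ftr52p and ftr87 were called. The pseudogene ftr52p measured 3.88, 3.09 and 2.19 CPM in mutants, against 9.15, 8.73 and 7.52 CPM in wild type (-1.50 ± 0.23, edgeR adjusted p = 0.0104). The gap of ftr87 (-1.72 ± 0.37, adjusted p = 0.0447) was lost in every fit without 1 library (highest adjusted p = 0.147). At 14 day ftr55 appeared, with 0.352, 0.617 and 0.179 CPM in mutants against 3.16, 2.42 and 1.53 CPM in wild type (-2.58 ± 0.49, edgeR adjusted p = 0.014). In wild type ftr55 was higher at 14 day than at 9 day (2.52 ± 0.47, adjusted p = 0.00466), and before 14 day no library of either genotype passed 0.571 CPM. Its call was lost in 1 of 6 fits without 1 library (highest adjusted p = 0.0544). The call of btr25 (-1.46 ± 0.28, adjusted p = 0.0162) was lost in 4 of 6 fits without 1 library (highest adjusted p = 0.0603). The antiviral ftr83 measured 31.5, 36.9 and 37.3 CPM in mutants at 14 day, against 23.5, 24.4 and 26.7 CPM in wild type. This was the reverse of its order at 1 somite and 25 hpf. It did not pass in the stage fit (0.49 ± 0.13, edgeR adjusted p = 0.056). In the fit of all 36 libraries it did (0.505 ± 0.148, edgeR adjusted p = 0.0237), so the call depends on the fit.

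**Figure D4:**
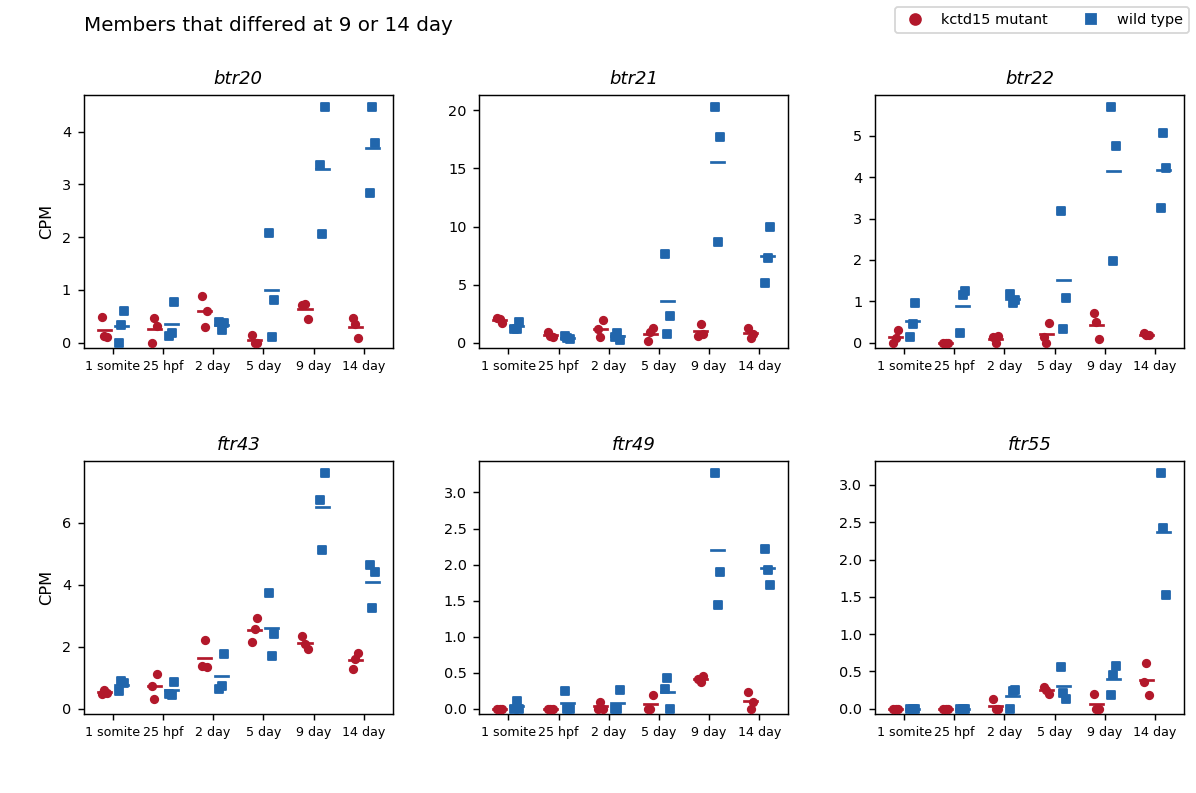
CPM per library (linear axes) of btr20, btr21, btr22, ftr43, ftr49 and ftr55 at 6 stages, with mutants as circles left of wild type as squares and bars at group means of 3 libraries. Wild type lies apart from mutants at 9 and 14 day for all but ftr55, which does so at 14 day only, with btr21 between 8.64 and 20.3 CPM in wild type at 9 day while mutants stay at or below 1.61 CPM.

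The interferon and myeloid lists were also lower in mutants at 14 day, while at 9 day few of their genes were called. Of all genes 4.8% were called at 14 day (2.5% lower) and 1.91% at 9 day (1.12% lower). Of the interferon genes, 5 of 35 were lower and none higher at 14 day and 1 of 32 was lower at 9 day, and the list summed to 287.7 to 308.1 CPM in mutants against 380.2 to 787.2 CPM in wild type at 14 day. Of the myeloid markers 5 of 21 were lower at 14 day and 1 of 21 at 9 day, and of the lymphoid markers 1 of 13 at 14 day and 0 of 11 at 9 day. The myeloid list summed to 353.2 to 390 CPM in mutants against 491.7 to 525.6 CPM in wild type at 14 day, and to 280.6 to 346.5 CPM against 296.9 to 388.9 CPM at 9 day. The 9 day myeloid sums overlapped, and single calls do not set a list apart from all genes. The part of these lists in the late calls was not tested.

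A fit of all 36 libraries separated effects held over the stages from those of 5 day. Averaged over the 6 stages, 16 of 68 members were called, 1 higher and 15 lower (background 20.5%, 9.58% higher and 10.9% lower). The members with the smallest p were btr07, btr22, ftr86, ftr52p, ftr93, btr20, btr21, btr02 and ftr94, all lower, and ftr51 alone was higher (0.31 ± 0.11, adjusted p = 0.0373). The call of ftr51 was lost in 15 of 36 fits without 1 library (highest adjusted p = 0.0847), and no stage fit called it. The low gene ftr94 had at most 1.52 CPM in any library and passed the filter of no stage fit. Averaged over the 5 stages other than 5 day, 13 of 68 were called, 2 higher and 11 lower (background 16.1%, 7.56% higher and 8.51% lower). A difference was taken as shared over stages where this average was called and the fitted fold change had the same sign at all 6 stages, which gave 4 members of 68, btr22, ftr15, ftr49 and ftr93, all lower in mutants. Of all genes 5.75% met the same rule and 3.19% were lower, so the share of members was near the background. In all, 7 members were below 0 at every stage and none above (background 4.65% below).

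Of the shared 4, btr22 was the clearest (-3.76 ± 0.47 over the 5 stages, edgeR adjusted p = 7.30e-07). That value includes 25 hpf, where mutants had 0 counts and the fit depends on the prior count. All 3 mutant libraries were at 0 there, against 0.242, 1.15 and 1.25 CPM in wild type, and at 2 day mutants had 0.127, 0 and 0.15 CPM, against 1.17, 0.965 and 1.02 CPM in wild type. The groups lay apart at 25 hpf, 2, 9 and 14 day and overlapped at 1 somite and 5 day. Next was ftr93 (-0.74 ± 0.19, adjusted p = 0.00588), which measured 0.713, 1.16 and 1.27 CPM in mutants at 5 day, against 2.36, 3.3 and 2 CPM in wild type, and 4.58, 6.17 and 3.93 CPM in mutants at 14 day, against 6.94, 6.4 and 7.56 CPM in wild type. The groups of ftr93 lay apart at 5, 9 and 14 day, by a small margin, and overlapped at 1 somite, 25 hpf and 2 day. Of the 3 stages at which ftr93 was tested only 5 day was called, a stage outside this average. The averages of btr22 and ftr93 were kept without any 1 of the 36 libraries. Those of ftr15 (-0.66 ± 0.22, adjusted p = 0.0352) and ftr49 (-2.37 ± 0.82, adjusted p = 0.0459) were lost in 10 and 22 of 36 such fits (highest adjusted p = 0.107 and 1). No stage fit called ftr15, which was tested at 4 stages. The called stages of ftr49 were 9 and 14 day, the 2 at which it was tested, and before 9 day it had at most 0.426 CPM in any library, so its shared sign rests on few counts.

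The falls of ftr86 and ftr52p were called in the average, but their fitted values crossed 0 at 2 day. The average was called for ftr86 (-0.59 ± 0.11, adjusted p = 0.000357), with a fitted value of 0.08 at 2 day, and ftr52p (-0.64 ± 0.13, adjusted p = 0.000466), with 0.31 at 2 day. At 2 day ftr86 measured 4.69, 3.52 and 6 CPM in mutants, against 3.89, 4.34 and 4.96 CPM in wild type, and the groups overlapped. Both were kept without any 1 of the 36 libraries.

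A difference was taken as one of 5 day where it was called at 5 day and at no other stage and the 5 day effect differed from the mean of the other 5. With the calls of the stage fits ftr37 and ftr97 met this, both lower, 2 of 68 against 2.41% of all genes (1.69% lower). With stage calls from the fit of all 36 libraries, an alternative added after these values had been seen, ftr29 and ftr35 met it too, 4 of 68 against 2.27% of all genes (1.55% lower), since they no longer fell to the filter of the 5 day fit. Their fitted 5 day changes were -3.29 ± 0.88 for ftr29 (edgeR adjusted p = 0.0107) and -3.98 ± 1.04 for ftr35 (adjusted p = 0.00859). The 5 day effect less the mean of the others was -1.09 ± 0.26 for ftr97 (edgeR adjusted p = 0.0103) and -1.33 ± 0.39 for ftr37 (adjusted p = 0.0379). At 9 day ftr97 measured 11.8, 11.2 and 9.42 CPM in mutants, against 15.5, 13.1 and 15.1 CPM in wild type. Mutants lay below wild type there too, as at 14 day and 1 somite, but by less (log2 fold change -0.45 ± 0.15, -0.42 ± 0.17 and -0.47 ± 0.21) and without a call, and at 25 hpf and 2 day the groups overlapped. The level of ftr37 at 5 day was 1.14, 0.646 and 0.974 CPM in mutants, against 2.08, 3.09 and 1.6 CPM in wild type, and at 25 hpf it was not called (0.59 ± 0.35). The 5 day contrasts were lost in 3 (ftr97) and 5 (ftr37) of 36 fits without 1 library (highest adjusted p = 0.0664 and 0.242). Those of ftr29 and ftr35 were lost in 6 and 15 of these fits.

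Altogether 6 of 68 members had a 5 day effect that differed from the mean of the other 5 stages, 1 upward and 5 downward (background 5.64%, 1.92% higher and 3.72% lower). The upward one was btr07, since its early deficit was absent at 5 day (3.94 ± 0.50, adjusted p = 3.93e-06, with the same caution on counts of 0). The deficit was absent at 9 and 14 day too, so this is not a difference particular to 5 day. The downward ones besides ftr97 and ftr37 were ftr50 (-2.09 ± 0.61), ftr29 (-3.34 ± 0.99) and ftr35 (-4.00 ± 1.22). At 5 day ftr50 was tested and not called (-1.34 ± 0.51, adjusted p = 0.106), and the filter left ftr29 and ftr35 out of the 5 day fit. Few reads carry them: ftr29 had 0, 0 and 0.292 CPM in mutants at 5 day, against 1.66, 1.6 and 0.534 CPM in wild type, and 4.46, 4.41 and 4.2 CPM at 14 day in mutants, against 4.1, 5.92 and 4.14 CPM in wild type. In wild type ftr29 was thus already present at 5 day and in mutants hardly so, while at 14 day the genotypes overlapped. In the same way ftr35 had 0.428, 0 and 0 CPM in mutants at 5 day, against 3.88, 1.17 and 1.47 CPM in wild type.

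**Figure D5:**
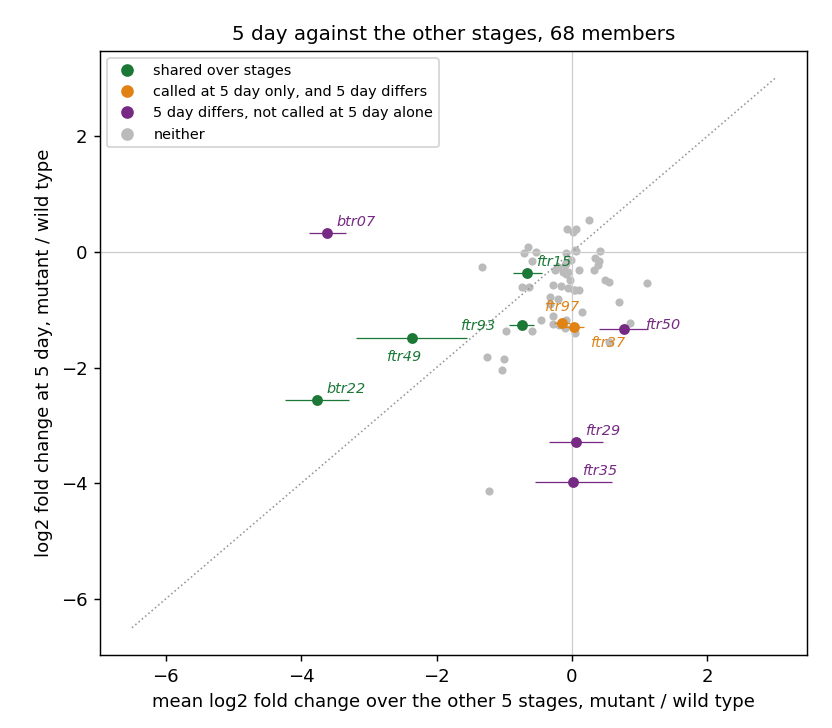
Fitted log2 fold change of mutant over wild type at 5 day (vertical) against its mean over the other 5 stages (horizontal, bars of 1 standard error for named points) for 68 members, with the dotted line where both are equal. The shared genes btr22, ftr49, ftr93 and ftr15 lie left of 0 and below 0, ftr97 (-1.23) and ftr37 (-1.31) lie below 0 at 5 day and near 0 on the horizontal axis, and btr07 lies alone at the upper left.

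The interaction of mutant effect and stage was called for 15 of 68 members (background 25.5%). The strongest were btr07, btr21, ftr79, ftr43 and ftr83, which were called at differing stages: btr07 up to 2 day, btr21 and ftr43 at 9 and 14 day, ftr79 at 2 day, and ftr83 at 1 somite and 25 hpf. The finTRIM ftr84, related to ftr82 and ftr83, was low throughout, at most 3.75 CPM in any library, and was not called at any stage at which it was tested.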

How the data were processed

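Reads were trimmed with Trimmomatic 0.36 and quantified with kallisto 0.43.0 by the authors, and edgeR and the build GRCz10 are named with no version or role, per the submitters' processing notes. TRIzol extraction and a stranded polyA kit are given per the labels' protocols. The authors deposited unnormalized estimated counts per gene and per transcript, and 84.1% of the gene values were fractional (over 1e-06 from a whole number). They also deposited a normalized signal per gene. For the 54 members it covers, that signal equalled CPM times a factor of 0.86 to 1.26 per library within 1%, and it was used only for this check. The sample descriptions number the replicates and do not say whether they are separate clutches, and p-values measure the spread between these libraries.

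Estimated counts were rounded to whole numbers and fitted over the whole table with edgeR 4.0.16 in R 4.3.3 (filterByExpr, TMM, glmQLFit and glmQLFTest), with Benjamini-Hochberg adjustment over all genes tested and a threshold of 0.05. Each stage was fitted alone on its 6 libraries. A fit of all 36 libraries gave the averaged effects, the 5 day contrast and the interaction (5 degrees of freedom). CPM (counts per M counted) uses the TMM factors of that fit, and the standard error is the fold change over the root of F. Ratios with 1 to 3 counts carry 95% counting intervals, and bounds against 0 use 3 counts over the group. Named genes follow a rule of size and p per comparison, plus ftr82, ftr83, ftr84, btr07 and btr20. Genes with fewer counts have wider errors, and replicates of a group differed beyond sampling noise (chi-square over its degrees of freedom from 2.47 to 14.4). The 5 day fit and the averaged effect were tried on simulated counts with a fixed spread between replicates. Only genes above 1 CPM were changed there, so the trial does not cover the low members or the other contrasts. Alternatives were other scaling within edgeR (RLE factors, library size only), no filter on low counts and a replicate block. Others were DESeq2 1.42.0, 1 fit for all stages and leaving out each library. Gene neighbours come from a RefSeq gene table of GRCz12tu. No sequences were used. The members and lists were chosen with earlier results of these data known.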

Additional observations from a re-analysis of the deposited data

Results flagged for a closer look

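The mutant effect differed between stages for 15 of 68 members by the edgeR interaction test over all 36 libraries. Their share was 22.1%, below the 25.5% of all genes called. The adjusted p was 1.091e-08 for btr07, 7.178e-05 for btr21, 0.001158 for ftr79, 0.002124 for ftr43, 0.002331 for ftr83, 0.00829 for ftr52p, 0.01218 for ftr86, 0.01289 for btr18, 0.01429 for btr04, 0.01484 for ftr76, 0.01502 for ftr97, 0.01713 for btr20, 0.01732 for ftr87, 0.03633 for ftr34 and 0.04843 for ftr50. Several of these rest on low counts: in any library ftr87 had at most 2.52 CPM, ftr34 at most 2.63 CPM and btr20 at most 4.47 CPM. The call of ftr34 was lost in 8 of 36 fits without 1 library, and that of ftr50 in 23 of 36.

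The 5 day effect differed from the mean of the other 5 for 6 of 68 members (8.82%), where 5.64% of all genes were called. The edgeR adjusted p was 3.927e-06 for btr07, 0.01033 for ftr97, 0.03557 for ftr50, 0.03787 for ftr37, 0.03986 for ftr29 and 0.0447 for ftr35. For btr07 the difference runs upward, because mutants lacked it before 5 day, and for the other 5 it runs downward. The calls of ftr50, ftr29 and ftr35 were lost in 7, 6 and 15 of 36 fits without 1 library. Groups held 3 libraries each, so no library was tested as an outlier.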

How the results depend on the processing

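No called mutant effect of a member turned its direction under another scaling, without the filter or with a replicate block. The same held with DESeq2, in 1 fit for all stages and without any 1 library. Directions of wild-type steps and of changes that were not called were not followed. The sum of btr04 and btr07 had a log2 fold change of 0.032 at 1 somite, where btr07 alone was lower. At 25 hpf, where btr04 alone was higher, the sum had -0.255. Neither was called, and btr07 was a small part of the sum at 1 somite. Library sizes alone gave 12 members at 5 day, 12 for the 5 day contrast, 23 for the interaction and 4 in the 5 day class. Without a filter 10 members were called at 1 somite and 4 at 2 day. DESeq2 gave 4 at 5 day, 1 in the 5 day class and 9 at the wild-type step to 2 day. RLE factors gave 1 in the 5 day class, and 1 fit for all stages gave 7 at 2 day and 12 at 5 day, with 4 in the 5 day class (stage calls of the 36-library fit, added after seeing the data). The last differs because the filter of the 5 day fit removes 2 of the 4. The other causes were not tested.

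Replicate numbers did not pair the libraries: same-numbered deviations correlated between -0.18 and 0.06 over 18 pairs, and 2 of 18 matched their own number best. With the replicate block 3 members were called at 1 somite, 1 at 2 day and 3 at 5 day, 2 for the 5 day contrast and 6 at the wild-type step to 14 day, with 2 in the shared class and 1 in the 5 day class.

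Leaving out each library in turn gave 3 to 8 members at 1 somite, 7 to 10 at 25 hpf, 1 to 6 at 2 day, 2 to 15 at 5 day, 3 to 8 at 9 day and 5 to 8 at 14 day. It gave 13 to 20 for the average, 9 to 15 without 5 day, 1 to 7 for the 5 day contrast, 11 to 19 for the interaction, 2 to 5 in the shared class and 0 to 3 in the 5 day class. For the wild-type steps it gave 21 to 22, 10 to 13, 20 to 26, 13 to 19 and 3 to 9 in order of stage. At 1 somite the count was 3 without mutant 1 or wild type 1 and 8 without mutant 2, at 2 day it was 1 without mutant 1 or 3 and 6 without wild type 3, and at 9 day it was 4 without mutant 1 or wild type 1 and 3 without mutant 3 or wild type 3. Depth limits the low members: 11 of 78 stayed under 1 CPM in every group, and a call that misses the threshold at such levels does not show that a gene was equal.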

Other observations

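Wild-type replicate 2 at 14 day stood apart on the interferon response list, at 787.2 CPM against 441.9 and 380.2 CPM in the other wild-type libraries and 287.7 to 308.1 CPM in mutants. The btr and ftr sum of that library was 416.3 CPM, against 405.1 and 402.7 CPM in the other wild-type libraries and 325 to 366.3 CPM in mutants. Its btr20, btr21 and btr22 levels were 4.47, 7.25 and 5.07 CPM, of which btr20 and btr22 were the highest of the wild-type group and btr21 lay between the others. The part of the interferon list in these levels was not tested.

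Some abundant members gave no call between genotypes. The finTRIM ftr67 measured 27.1, 28 and 26.9 CPM in mutants at 5 day, against 18, 21 and 23.4 CPM in wild type, above wild type in every library where most members lay below (log2 fold change 0.38 ± 0.12, edgeR adjusted p = 0.0622). The most abundant late member, ftr82, had log2 fold changes between -0.24 ± 0.12 at 14 day and 0.24 ± 0.12 at 2 day, with no call at any stage.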
